A study of Oryza sativa Indica Group with 6 samples.

Results

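The expression of 10 genes of cytokinin activation and breakdown was followed in young rice panicles of the *ssh1* mutant and of the wild type. They were *LOG*, which encodes an activating enzyme, and 9 genes of the cytokinin oxidase/dehydrogenase (*CKX*) family. Hormone levels are not part of these data. The genes were chosen by locus ID from known gene functions, although earlier results of these data were known by then. All 10 of them were found among 55982 locus IDs. The RNA-seq experiment comprised 6 libraries, 3 of *ssh1* and 3 of the wild type, from panicles 0 to 4 cm long, with 5 plants pooled in each replicate. The *ssh1* mutant came from EMS mutagenesis of the wild type, YIL100, which is an *indica* line (Teqing) carrying introgressed segments of the wild rice *Oryza rufipogon*. It bears a C-to-A change in an intron of *SNB* (LOC_Os07g13170, an APETALA2-like transcription factor gene), and its genotype is given in the sample labels as SSH1-/-. The mutant is a single EMS line, so other changes of that line and the change in *SNB* cannot be told apart in this comparison. The experiment asked which genes depend on *SNB* in the panicle at the stage when the abscission layer forms.

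Cytokinins are adenine-derived hormones that keep the cells of shoot and inflorescence meristems dividing. They are made as inactive nucleotides by isopentenyltransferases (IPT), and LOG releases the active free base in a single step. In rice the loss of *LOG* shortens the life of the meristem and leaves small panicles with few flowers. The CKX enzymes cleave the side chain and so destroy the hormone, and natural alleles of *CKX2*, known as *Gn1a*, that lower its expression increase grain number. The active hormone is perceived by membrane histidine kinases (HK), and type-A response regulators (RR) are among the genes that it induces and that dampen its signal.

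Expression is given in FPKM, a fragment number divided by transcript length and by library size, which keeps no record of the reads behind a value. Differences were tested with limma on log2(FPKM + 1) over the 18537 genes that averaged 1 FPKM or more, and the added 1 understates the change of low genes. A gene is said to have risen or fallen in *ssh1* where its adjusted p (Benjamini-Hochberg over all tested genes) was below 0.05, and the stricter thresholds of the study, which ask for a 2-fold difference or more together with a false discovery rate under 0.001, are given beside it, with the fold taken on the log2(FPKM + 1) scale. The median log2 fold change of all tested genes was -0.14, and median-of-ratios scaling, which removes that shift, moved it to -0.01. At an adjusted p below 0.05 there were 3149 genes higher and 5192 genes lower in *ssh1* in limma, and 4018 higher and 3560 lower after that scaling. *SNB* itself was at 7.97, 7.44 and 8.86 FPKM in *ssh1*, against 20.9, 16.9 and 18.0 FPKM in the wild type. Replicate 3 of *ssh1* stood nearer to the wild type than the other *ssh1* libraries. Its score on the first principal component was 40.9, against 67.9 and 69.6 in the other *ssh1* replicates and -61.5 to -58.0 in the wild type.

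Of the 10 genes, 6 passed the filter on low values and were tested. Among these, 1 rose in *ssh1* (*CKX5*), 2 fell (*CKX11* and *CKX3*), and the differences of *LOG*, *CKX2/Gn1a* and *CKX9* did not pass. Over all tested genes 17.0% rose and 28.0% fell by the same rule, so the share of the 6 genes called was near that of the genome in each direction. By the thresholds of the study 1 of the 6 was called, *CKX5*, where 3.19% of all tested genes were called as higher. None of the 6 was called as lower, where 1.92% of all tested genes were, although 2 of them were lower in limma at an unadjusted p below 0.05. All replicates of *ssh1* lay above all replicates of the wild type in 1 of the 6 genes (21.7% of all tested genes) and below them in 2 (38.0%). The median log2 fold change of the 6 genes was 0.07. *CKX2/Gn1a*, 1 of the 6, passed the filter only through *ssh1*, where it was higher, which favours a positive value. The remaining 4 genes were low: *CKX4*, *CKX8* and *CKX10* averaged below 1 FPKM and *CKX1* was listed at 0 in every library.

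**Figure D1:**
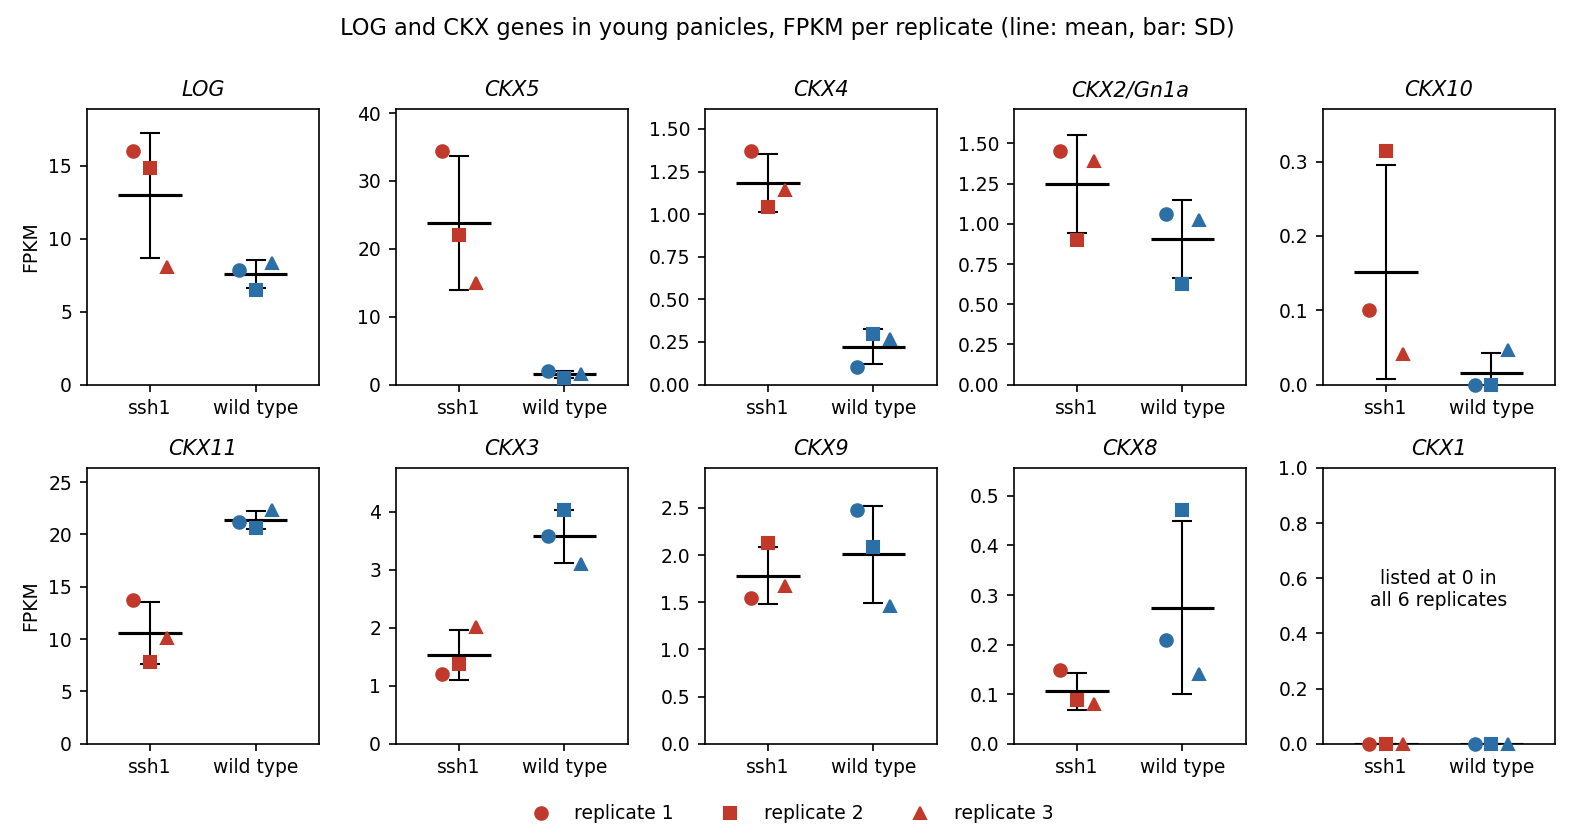
FPKM (vertical axes, each from 0) of *LOG* and the 9 *CKX* genes in the 3 *ssh1* and the 3 wild-type replicates, with a point for each replicate, a horizontal line at the mean and a bar of 1 SD to each side. *CKX5* stood at 15.0 to 34.4 FPKM in *ssh1* and at 1.02 to 2.02 FPKM in the wild type, whereas the 3 *LOG* values of *ssh1* included one, 8.05 FPKM, inside the wild-type range.

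*LOG* (LOC_Os01g40630, chromosome 1), which encodes an activating enzyme, was at 16.0, 14.8 and 8.05 FPKM in *ssh1*, against 7.85, 6.49 and 8.37 FPKM in the wild type. Replicates 1 and 2 of *ssh1* were above every wild-type replicate, and replicate 3 lay between those of the wild type, so that the groups overlapped. The means were 13.0 ± 4.30 FPKM in *ssh1* and 7.57 ± 0.973 FPKM in the wild type (SD, n = 3 each). The log2 fold change was 0.66 with a 95% confidence interval from 0.05 to 1.27, and the adjusted p in limma was 0.0763, short of the threshold (exact permutation test, two-sided, p = 0.2). The value moved most with replicate 3 of *ssh1*: without it the log2 fold change was 0.94 and the adjusted p in limma 0.00396. With any other replicate left out the log2 fold change was 0.49 to 0.73, and the adjusted p in limma 0.125 to 0.200. After median-of-ratios scaling of all 6 libraries the log2 fold change was 0.78 (limma, adjusted p = 0.0551).

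*CKX5* (LOC_Os01g56810, chromosome 1), a cytokinin oxidase/dehydrogenase gene, had the largest difference of the tested members. It was at 34.4, 22.1 and 15.0 FPKM in *ssh1*, against 2.02, 1.02 and 1.55 FPKM in the wild type. Even the lowest *ssh1* replicate, replicate 3, was far above the highest wild-type replicate, although the *ssh1* values spread over a 2.30-fold range. The mean level was 23.8 ± 9.85 FPKM in *ssh1* and 1.53 ± 0.4996 FPKM in the wild type (SD, n = 3 each), a 15.6-fold ratio. On the log2 scale the difference was 3.24 ± 0.31 (standard error), with an adjusted p of 0.00067 in limma, past both thresholds of the study. It was the 206th largest rise among the 18537 tested genes. With any replicate left out the log2 fold change lay between 2.94 and 3.52, and the adjusted p in limma between 0.000797 and 0.00516, so that in 5 of the 6 fits it no longer met the 0.001 limit.

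*CKX4* (LOC_Os01g71310, chromosome 1) was low in both genotypes but did not overlap between them. In rice this gene is known from root growth, where its activation lowers cytokinin and enlarges the root system. It was at 1.37, 1.04 and 1.14 FPKM in *ssh1*, against 0.106, 0.297 and 0.265 FPKM in the wild type, a 5.32-fold ratio of the means. With a mean of 0.703 FPKM over the 6 libraries it stood below the filter and had no test in the main fit. In the limma fit without the filter, over 30210 genes, its log2 fold change was 0.84 (adjusted p = 0.00304). The number of fragments behind these values is unknown.

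*CKX11* (LOC_Os08g35860, chromosome 8), whose loss in rice is known to delay leaf senescence and raise grain number, was the most abundant *CKX* transcript of the wild type. It was at 13.7, 7.84 and 10.1 FPKM in *ssh1*, against 21.2, 20.6 and 22.3 FPKM in the wild type. All replicates of *ssh1* were below all replicates of the wild type, which lay within a narrow range. On the log2(FPKM + 1) scale the difference was -0.99 ± 0.18 (standard error), with an adjusted p of 0.00692 in limma, which missed the 0.001 limit of the study. The ratio of the mean FPKM as deposited, without the added 1, was 0.493, just past a 2-fold difference. After median-of-ratios scaling the log2 fold change was smaller, at -0.86 (limma, adjusted p = 0.00946). Its spread on the log2 scale was 0.37 in *ssh1* and 0.06 in the wild type (SD, n = 3 each), where the median over all tested genes was 0.16 in *ssh1* and 0.10 in the wild type.

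*CKX3* (LOC_Os10g34230, chromosome 10) fell as well, at a lower level. It was at 1.20, 1.37 and 2.02 FPKM in *ssh1*, against 3.59, 4.03 and 3.10 FPKM in the wild type, with no overlap and with replicate 3 of *ssh1* again the nearest to the wild type. On the log2 scale the difference was -0.86 ± 0.16 (standard error), with an adjusted p of 0.00744 in limma, and the ratio of the mean levels was 0.428. With any replicate left out, *CKX3* and *CKX11* kept an adjusted p below 0.05 in limma, at most 0.0331 for *CKX3* and 0.0307 for *CKX11*.

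*CKX2/Gn1a* (LOC_Os01g10110, chromosome 1), the grain number gene, was at 1.45, 0.900 and 1.39 FPKM in *ssh1*, against 1.06, 0.625 and 1.02 FPKM in the wild type. The groups overlapped, since replicate 2 of *ssh1* lay below replicates 1 and 3 of the wild type. The means were 1.25 FPKM in *ssh1* and 0.904 FPKM in the wild type, so the gene passed the filter on low values only through *ssh1*. The log2 fold change was 0.24 with a 95% confidence interval from -0.19 to 0.67 (limma, adjusted p = 0.306). The interval on the log2(FPKM + 1) scale does not reach a doubling in either direction, and at this level the added 1 is about as large as the value itself. *DST* (LOC_Os03g57240), which encodes a zinc finger factor known to activate *CKX2/Gn1a* in rice and is described here for that role although it was outside the naming rule, was at 1.04, 0.491 and 1.93 FPKM in *ssh1*, against 5.18, 5.44 and 3.28 FPKM in the wild type. It fell, with a log2 fold change of -1.42 (limma, adjusted p = 0.00977).

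*CKX9* (LOC_Os05g31040, chromosome 5), known in rice as a gene induced by strigolactone, was at 1.55, 2.13 and 1.68 FPKM in *ssh1*, against 2.48, 2.09 and 1.46 FPKM in the wild type. The groups overlapped throughout (log2 fold change -0.10, 95% confidence interval -0.52 to 0.32, adjusted p = 0.651 in limma). The sign of this difference turned when replicate 1 of the wild type was left out (0.0088 on the log2 scale).

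The other 3 genes were near or at 0. *CKX8* (LOC_Os04g44230, chromosome 4) was at 0.149, 0.0891 and 0.0804 FPKM in *ssh1*, against 0.210, 0.472 and 0.140 FPKM in the wild type, with an overlap of the groups. *CKX10* (LOC_Os06g37500, chromosome 6) was at 0.09999, 0.314 and 0.0406 FPKM in *ssh1*, and was listed at 0 in 2 wild-type replicates and at 0.0472 FPKM in the other. Neither passed in the limma fit without the filter (adjusted p = 0.215 for *CKX8* and 0.219 for *CKX10*). *CKX1* (LOC_Os01g09260, chromosome 1) was listed at 0 in all 6 libraries, as was *CKX7* (LOC_Os02g12780), a *CKX* gene outside the 10.

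Levels in FPKM are per length, and the genes were ranked by them. The reads of this *indica* introgression line were mapped to the Nipponbare reference genome. How well each gene maps there was not tested, and it could affect the order. In *ssh1* the order by mean level was *CKX5*, *LOG*, *CKX11*, *CKX9*, *CKX3*, *CKX2/Gn1a*, *CKX4*, *CKX10*, *CKX8* and *CKX1*. The ranges of neighbours in that order did not overlap between *CKX11* and *CKX9*, between *CKX4* and *CKX10*, and between *CKX8* and *CKX1*, and overlapped at the other steps. In the wild type the order was *CKX11*, *LOG*, *CKX3*, *CKX9*, *CKX5*, *CKX2/Gn1a*, *CKX8*, *CKX4*, *CKX10* and *CKX1*. There *CKX11*, *LOG* and *CKX3* each stood clear of the next gene, whereas *CKX9* and *CKX5*, *CKX5* and *CKX2/Gn1a*, *CKX8* and *CKX4*, and *CKX10* and *CKX1* overlapped. *CKX5* thus stood in place 1 in *ssh1* and in place 5 in the wild type. Its mean level was above that of 90.5% of all 55982 genes in *ssh1* and of 69.3% in the wild type.

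The genotypes differed more in which *CKX* gene led than in the sum of the family. The 9 *CKX* genes summed to 54.0, 35.8 and 31.4 FPKM in *ssh1*, against 30.7, 29.2 and 29.9 FPKM in the wild type. The *ssh1* sums were all above those of the wild type, by little in replicate 3, and the means were 40.4 ± 12.0 FPKM in *ssh1* and 29.9 ± 0.756 FPKM in the wild type (SD, n = 3 each). *CKX5* made up 63.8%, 61.8% and 47.7% of the sum in *ssh1*, against 6.58%, 3.50% and 5.18% in the wild type. *CKX11* made up 25.4%, 21.9% and 32.1% in *ssh1*, against 69.1%, 70.7% and 74.7% in the wild type. Shares of 1 sum are not independent of each other, so that a higher share of *CKX5* lowers the others. The level of *CKX5* relative to *CKX11* was 2.51, 2.82 and 1.49 in *ssh1*, against 0.0952, 0.0494 and 0.0693 in the wild type. Without *CKX5* the other 8 genes summed to 19.5, 13.7 and 16.4 FPKM in *ssh1*, against 28.7, 28.1 and 28.4 FPKM in the wild type. The groups did not overlap in that sum, which was lower in *ssh1*, while the sum with *CKX5* was higher.

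**Figure D2:**
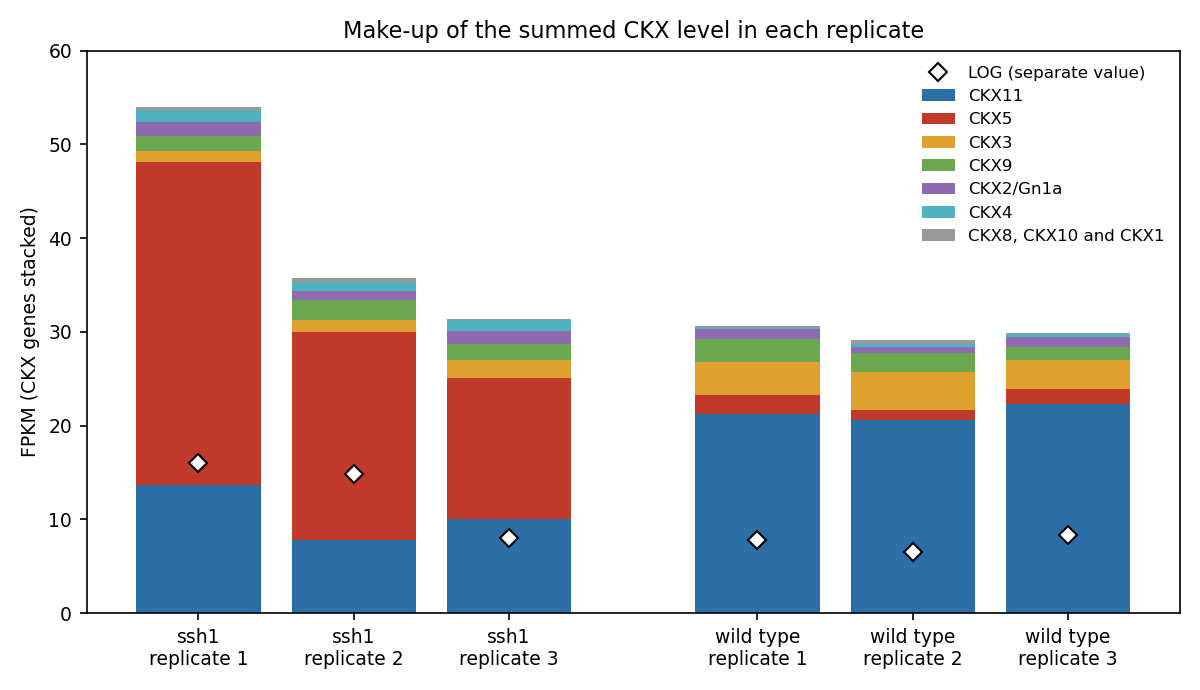
FPKM (vertical axis, from 0) of the *CKX* genes stacked in 1 bar per replicate, with *ssh1* at the left and the wild type at the right, and the separate level of *LOG* as a diamond. The part of *CKX5* is between 47.7% and 63.8% of the bar in *ssh1*, and that of *CKX11* between 69.1% and 74.7% in the wild type.

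*LOG* was set against the *CKX* sum in the same library, a ratio that does not depend on the scaling of the library. The ratio was 0.297, 0.414 and 0.257 in *ssh1*, against 0.256, 0.222 and 0.280 in the wild type. Replicates 1 and 2 of *ssh1* were above the wild type and replicate 3 was within it, so that the ranges overlapped (0.323 ± 0.0820 in *ssh1* and 0.253 ± 0.0288 in the wild type, SD, n = 3 each). The ratio takes *LOG* alone and leaves out 10 related *LOG*-like genes. Of the sum with those genes, *LOG* made up 5.75% to 14.8% in *ssh1* and 5.05% to 6.08% in the wild type. It is therefore not a ratio of activation to breakdown as a whole. No test was made of this ratio or of the sums, which combine chosen genes.

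**Figure D3:**
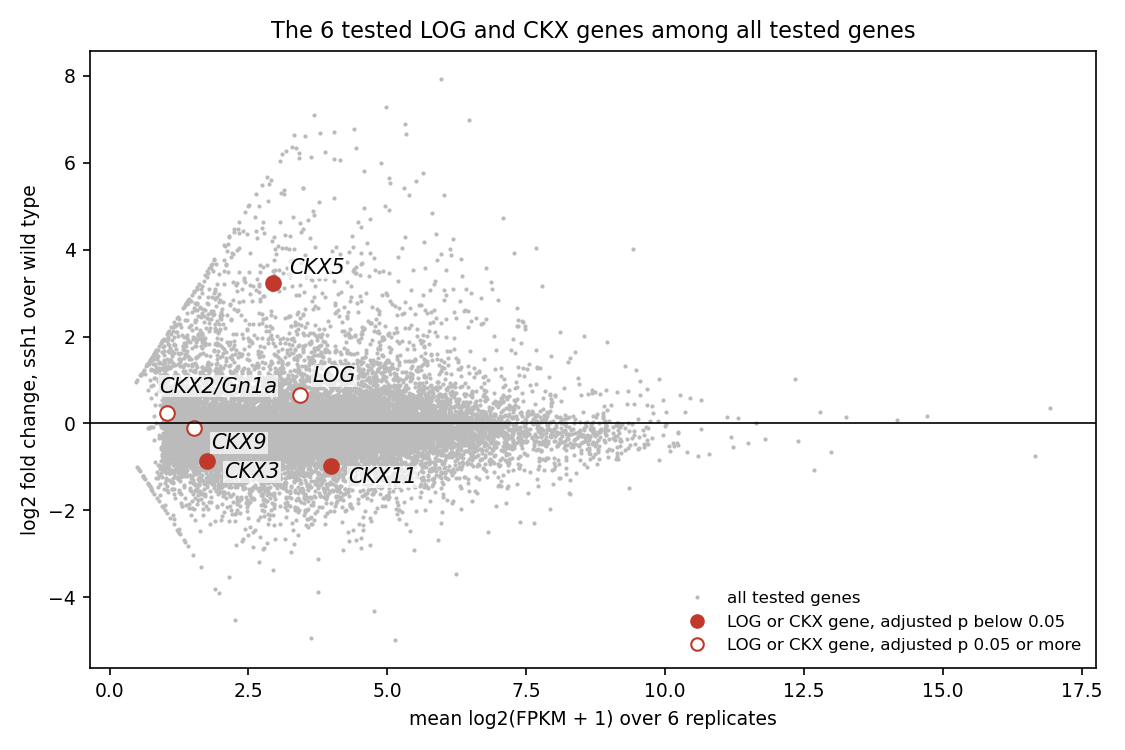
Log2 fold change of *ssh1* over the wild type (vertical axis) against the mean log2(FPKM + 1) over the 6 replicates (horizontal axis) for the 18537 tested genes (grey points), with the 6 tested *LOG* and *CKX* genes as large circles, filled where the adjusted p was below 0.05. *CKX5*, at 3.24, stands apart from the other 5, which lie between -0.99 and 0.66.

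The genes whose pattern over the 6 libraries was most like that of *LOG* were sought by the root mean square difference of log2(FPKM + 1), each gene centred on its own mean. They were LOC_Os02g27480, with a difference of 0.0461, and LOC_Os01g22010, with 0.0750, where the pattern of *LOG* itself departed from its mean by 0.448. LOC_Os02g27480 was at 5.10, 4.51 and 2.18 FPKM in *ssh1*, against 1.98, 1.45 and 2.33 FPKM in the wild type. Its low value in replicate 3 of *ssh1*, as in *LOG*, follows from the choice by likeness over these same libraries. For *CKX2/Gn1a* they were LOC_Os01g37130 (0.0269) and LOC_Os11g01450 (0.0444), where the pattern of *CKX2/Gn1a* departed from its mean by 0.201. No gene names are given here for these 4 loci.

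The rest of the cytokinin pathway was read from lists of known rice genes. Of the 10 *LOG*-like genes, which encode enzymes related to LOG, all were tested, and 1 rose, 3 fell and 6 did not pass, shares near the 17.0% and 28.0% of all tested genes. *LOGL6* (LOC_Os04g43840) fell past the thresholds of the study. It was at 2.11, 1.68 and 2.59 FPKM in *ssh1*, against 12.0, 8.47 and 9.14 FPKM in the wild type (log2 fold change -1.79, standard error 0.17, adjusted p = 0.000646 in limma). The only one to rise was *LOGL5* (LOC_Os03g64070), named here after its values were seen, at 15.4, 9.22 and 8.64 FPKM in *ssh1* against 3.93, 3.56 and 3.41 FPKM in the wild type (log2 fold change 1.34, adjusted p = 0.00392 in limma). The others to fall, *LOGL3* and *LOGL9*, likewise named after their values were seen, had log2 fold changes of -0.78 and -0.52 (limma, adjusted p = 0.00685 and 0.0466). *LOGL9* did not pass after median-of-ratios scaling (limma, adjusted p = 0.0857), and with each replicate left out it passed in 1 of 6 fits. The median log2 fold change of the 10 was -0.29.

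For the steps before LOG, 7 *IPT* genes and 2 hydroxylase genes (*CYP735A*) were listed, and none of these passed the filter on low values. Other genes of these steps were not read. The names of the listed genes were not found in the RefSeq gene table used to check names, so their locus IDs are unchecked. *IPT1*, *IPT2*, *IPT3* and *IPT5* were listed at 0 in all 6 libraries, and the 3 other *IPT* genes stayed below 1 FPKM in each, with sums over the list from 0.409 to 1.57 FPKM in *ssh1* and from 0.830 to 1.35 FPKM in the wild type. *CYP735A3* (LOC_Os08g33300), which encodes a hydroxylase that makes trans-zeatin forms, was listed at 0 in all 3 replicates of *ssh1*, against 0.0836, 0.188 and 0.419 FPKM in the wild type. The other gene of this kind, *CYP735A4* (LOC_Os09g23820), overlapped between the groups, at 0.0492, 0 and 0.0799 FPKM in *ssh1* against 0.0417, 0.843 and 0.464 FPKM in the wild type. Neither was tested, both are named here after their values were seen, and no fold is given since the depth behind a value of 0 is unknown.

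All 4 receptor genes differed between the genotypes, and not in 1 direction: 1 rose and 3 fell, where 17.0% of all tested genes rose and 28.0% fell. *HK4* (LOC_Os03g50860) fell past the thresholds of the study, at 12.1, 13.2 and 16.7 FPKM in *ssh1* against 31.9, 37.2 and 34.7 FPKM in the wild type (log2 fold change -1.25, standard error 0.13, adjusted p = 0.000873 in limma). *HK6* (LOC_Os02g50480) and *HK5* (LOC_Os10g21810) fell by 0.87 and 0.60 on the log2 scale (limma, adjusted p = 0.000532 and 0.00182). *HK3* (LOC_Os01g69920) rose, at 39.8, 39.2 and 38.2 FPKM in *ssh1* against 26.9, 25.8 and 25.2 FPKM in the wild type, a log2 fold change of 0.57 (limma, adjusted p = 0.000912). After median-of-ratios scaling *HK4* kept its direction and missed the 0.001 limit of the study (limma, adjusted p = 0.00106). The sum over the receptors was 77.4 to 84.1 FPKM in *ssh1* and 107 to 110 FPKM in the wild type.

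The type-A response regulators were lower in *ssh1* where they differed. Of 13 genes 10 were tested, of which 7 fell, none rose and 3 did not pass, where 28.0% of all tested genes fell and 17.0% rose. None of the 10 was called in limma by the thresholds of the study. Their median log2 fold change was -0.83, where that of all tested genes was -0.14. *RR11* (LOC_Os02g42060) was at 2.07, 1.002 and 1.997 FPKM in *ssh1*, against 9.87, 6.72 and 10.4 FPKM in the wild type, a log2 fold change of -1.90 (limma, adjusted p = 0.00153). *RR2* (LOC_Os02g35180) and *RR3* (LOC_Os02g58350) fell by 1.52 and 0.79 on the log2 scale (limma, adjusted p = 0.00229 and 0.00275). *RR4*, the one tested member with a positive value, did not pass (0.32, limma, adjusted p = 0.228). After median-of-ratios scaling the median of the 10 was -0.72, and *RR6* no longer passed (limma, adjusted p = 0.0773). *RR5*, 1 of the 7 that fell, averaged 0.192 FPKM in *ssh1* and 2.43 FPKM in the wild type. It passed the filter on low values only through the wild type, which favours a call as lower. *RR9* and *RR10* are near-identical copies, and their separate values are uncertain. *RR4*, *RR5*, *RR6*, *RR9* and *RR10* are outside the naming rule and were chosen after their values were seen.

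**Figure D4:**
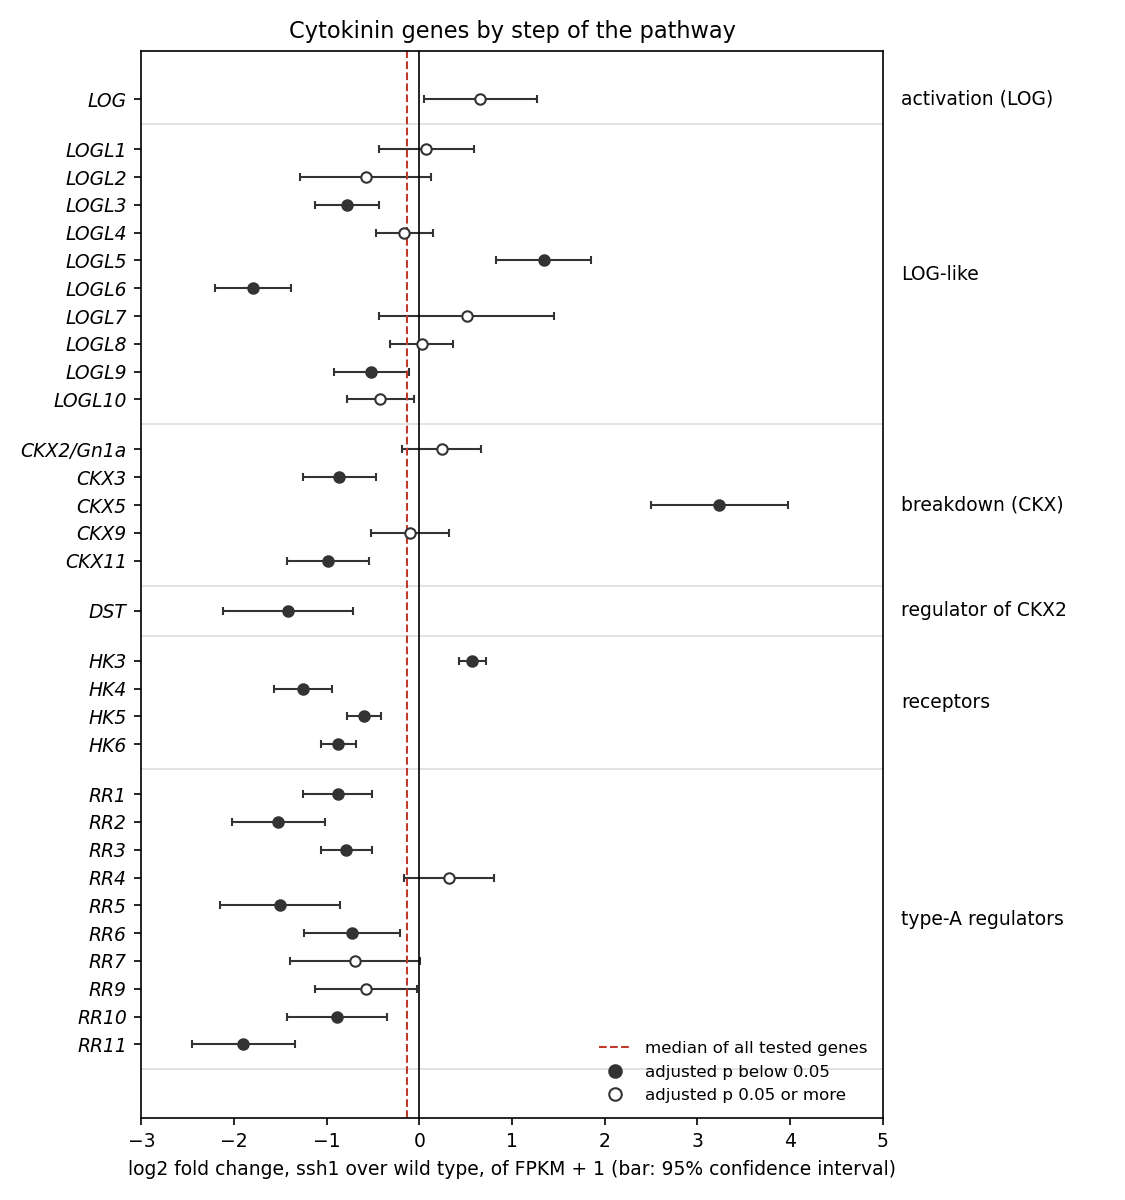
Log2 fold change of FPKM + 1 in *ssh1* over the wild type (horizontal axis) for the tested cytokinin genes, grouped by step of the pathway, with 95% confidence intervals from limma, filled points where the adjusted p was below 0.05 and a dashed line at the median of all tested genes (-0.14). *CKX5* lies at 3.24, and of the 10 type-A response regulators 9 lie to the left of 0.

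Markers of tissues that a young panicle can hold were read in the same libraries. Their counts stand beside 17.0% of all tested genes that rose and 28.0% that fell. The 5 floral organ MADS-box genes, which mark the labelled tissue, summed to 218 to 268 FPKM in *ssh1* and 240 to 339 FPKM in the wild type, with none at 0, and of which 1 of 5 fell. The 2 meristem genes *OSH1* and *OSH15* both fell, and summed to 111 to 134 FPKM in *ssh1* and 241 to 256 FPKM in the wild type. Of 5 photosynthesis genes of green tissue 2 rose and 3 did not pass, with sums of 220 to 520 FPKM in *ssh1* and 199 to 298 FPKM in the wild type. Of 5 anther genes 3 were tested and 1 fell, with sums of 4.18 to 6.21 FPKM in *ssh1* and 8.75 to 10.7 FPKM in the wild type, *EAT1* being at 0 in 2 *ssh1* replicates. The anther gene that fell, *CYP704B2*, averaged 0.434 FPKM in *ssh1* and 1.91 FPKM in the wild type. *RBCS4*, 1 of the 2 green tissue genes that rose, averaged 2.20 FPKM in *ssh1* and 0.898 FPKM in the wild type. Each passed the filter only through the genotype where it was higher, which favours such a call. The secondary wall cellulose synthases summed to 4.69 to 7.07 FPKM in *ssh1* and 6.65 to 7.60 FPKM in the wild type, and the 1 of 3 that was tested, *CESA4*, fell (limma, adjusted p = 0.0168), but did not pass after median-of-ratios scaling (0.0521) or with the replicate block (0.0538). In whole panicles fewer cells of a type and less RNA per cell cannot be told apart, and the part of these tissues in the values of the *LOG* and *CKX* genes was not tested.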

How the data were processed

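RNA-seq was made of 0- to 4-cm panicles of *ssh1* and the wild type, 3 replicates each. The authors mapped paired-end reads with TopHat2 at default settings to IRGSP-1.0 with the MSU7 annotation and calculated with Cuffdiff the deposited values, 1 FPKM per gene and replicate. Tool versions and read numbers are not given in the sources used here, so that no counting error could be computed and the depth is unknown. The sums of FPKM ranged from 832551 to 956551 in *ssh1* and from 883159 to 978426 in the wild type.

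Repeated entries led to the removal of 4 locus IDs. Genes averaging 1 FPKM or more were fitted on log2(FPKM + 1) in R 4.3.3, using limma 3.58.1 (lmFit, eBayes with a mean-variance trend), with genotype as the only term, and the code was tested on simulated data. Cuffdiff's own test needs reads. For single genes an exact permutation test (two-sided) was added, which with 3 against 3 cannot give a p below 0.1. The replicates are the separate samples of the labels, stated by the study to be biological, each a pool of plants. Alternatives were another pseudocount (0.1), no filter (any value above 0) or a minimum of 5 FPKM, 3 other scalings, robust estimation, sample weights, a replicate block and each replicate left out.

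The members and lists were chosen with earlier results of these data known. The genes named were all 10 members, *SNB*, the 8 pathway genes with the smallest p among those past an adjusted p of 0.05, and the 2 genes most like *LOG* and the 2 most like *CKX2/Gn1a*. Any other gene named is outside this rule. Names of 8 of the 10 members and of 22 of 39 pathway genes stand in a RefSeq gene table (ASM3414082v1), each on the chromosome of its locus ID. Coordinates of that assembly were not used, and the locus of *CKX6* is not analysed here.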

Additional observations from a re-analysis of the deposited data

How the results depend on the processing

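*CKX5* rose and *CKX3* and *CKX11* fell at an adjusted p below 0.05 in limma under every setting that tested them (*CKX3*, with a mean of 2.55 FPKM, is not tested at a minimum of 5 FPKM). Of the members, 1 passed the thresholds of the study, *CKX5*. That number was 0 when genes of any value above 0 were kept, 0 with the replicate block, and 0 to 1 with each replicate left out, the 1 being without replicate 3 of *ssh1*. Those fits gave *CKX5* the same direction, and 3 to 5 members at an unadjusted p below 0.05 in limma. Over all tested genes the count past these thresholds was 947, against 487 without the filter, 0 with the replicate block (limma, with 8707 genes below 0.05 before adjustment) and 66 to 790 with each replicate left out. *LOG* passed an adjusted p of 0.05 with sample quality weights (0.68, adjusted p = 0.0479) and without replicate 3 of *ssh1* (0.94), and ranged from 0.49 to 0.94 with each replicate left out. *CKX9* reversed from -0.10 to 0.0088 without replicate 1 of the wild type, and ranged from -0.24 to 0.0088. The cause was not tested. *CKX4*, untested with the filter, passed without it (0.84, limma, adjusted p = 0.00304). The other recomputed fold changes of members kept their direction and, where tested in both fits, their side of the limit. The mean *CKX* sum of *ssh1* was 1.35 times that of the wild type, and 1.12 to 1.4998 times with each replicate left out. It was 1.49 times after median-of-ratios scaling and 1.37 times after rescaling to a common sum.

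The labels give same-numbered samples a shared number and do not state a pairing. The correlations of their deviations were -0.10, -0.07 and -0.17, and 0 of the 6 samples correlated best with its own number. These values cannot settle whether such samples were paired, since deviations from the mean of a small group depend on each other. With the replicate block (2 residual degrees of freedom, against 4 without it), 0 members passed the thresholds of the study and 3 passed an adjusted p of 0.05 in limma. The reads behind values are unknown, including those below 1 FPKM (*CKX4*, *CKX8*, *CKX10*, *IPT* and *CYP735A* genes).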

Other observations

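*LOG* and the 10 *LOG*-like genes summed to 151, 99.9 and 140 FPKM in *ssh1*, against 133, 128 and 138 FPKM in the wild type. *LOG* made up 10.6%, 14.8% and 5.75% of that sum in *ssh1*, against 5.91%, 5.05% and 6.08% in the wild type. The genotypes overlapped in both quantities, and neither was tested.

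Of the genes past an adjusted p of 0.05 in limma, replicate 3 was the *ssh1* library nearest to the wild-type mean for 53.3%, replicate 2 for 24.2% and replicate 1 for 22.6%. Among the 6 tested members it was replicate 3 for 3 (*LOG*, *CKX3* and *CKX5*), replicate 2 for 2 (*CKX2/Gn1a* and *CKX9*) and replicate 1 for 1 (*CKX11*).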
